A study of Mus musculus with 31 samples.

Results

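The livers of 10 mice given an antisense oligonucleotide (ASO) against Upf3b at 2 doses were compared directly with each other. The members are 5 mice labelled Upf3b-GalNAc-ASO at 20 mg/kg and 5 mice labelled Upf3b-GalNAc-ASO at 10 mg/kg, taken from their dose labels, out of 31 mice in the series. All mice were of the strain hFIX-R29X, a hemophilia B model that carries a human factor IX minigene with the R29X nonsense mutation under the hepatocyte-active human transthyretin promoter and lacks its own F9 gene. They were 8 to 14 weeks old, received 6 subcutaneous doses 5 days apart by the treatment protocol, though the dose label of the samples calls the dosing weekly, and were killed 48 h after the last one. Each Upf3b ASO group held 2 females and 3 males. The control groups received Control-GalNAc-ASO at 20 mg/kg (3 females and 3 males), Control-GalNAc-ASO at 15 mg/kg (2 females and 2 males) or DPBS, the saline vehicle (6 females and 5 males). Every liver was profiled by digital gene expression, with a kit that the labels describe as sequencing the 3′ end of each mRNA while the study's methods name a TruSeq protocol, and is given in TPM, the share of transcripts scaled to a fixed total, per gene symbol.

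Nonsense-mediated mRNA decay (NMD) is the surveillance pathway that degrades mRNAs with a premature stop codon. UPF1 is its central helicase, SMG1 the kinase that activates UPF1, and UPF2 and UPF3B link UPF1 to the exon junction complex, which splicing leaves on the mRNA. UPF3B is a branch-specific factor that part of the NMD substrates do not need. An ASO with a DNA gap recruits RNase H1 to the mRNA it pairs with, and a GalNAc group carries the ASO into hepatocytes through the asialoglycoprotein receptor. The comparison of the doses asks what the larger dose added to depletion of Upf3b and to the rest of the liver transcriptome.

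Both oligonucleotides are shown because the first was given at either dose and the second measures what an ASO of the same chemistry does. They are 16 bases long, with 3 constrained-ethyl nucleotides at each end, in capitals, around a gap of 10 DNA bases. The sequences are those of the study's list of designed ASOs.
Upf3b ASO: GGAtatagatgtaACG
control ASO: GGCcaatacgccgTCA
Upf3b site: atagtcaCGTTACATCTATATCCtgtgtct
The full complement of the Upf3b ASO, in capitals in the mRNA-sense site, was found in 1 gene of the GENCODE M21 transcripts, Upf3b itself. It lies at chrX:37091973-37091988 of GRCm38 on the minus strand, in the 3′ UTR of exon 10 of 10, 295 bases from the 3′ end of a transcript of 2344 bases. Of the 3 Upf3b transcripts annotated, 1 holds the site. The control ASO had no full match in any gene of that set. Introns were not searched.

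A pair of libraries stood apart from the others, and leaving them out was chosen after seeing the data. Over the genes tested, the median correlation of 10 mg/kg mouse 3 with its own group was 0.681, against 0.828 to 0.853 for the other 4, and its depth, about 1020676 reads, was the lowest of the 10, whose range reached 5208482. The 50 most abundant genes took 38.3% of the TPM of 20 mg/kg mouse 2, against 26.3 to 32.3% in the other 9 mice. That mouse also had a mean log2(TPM + 1) of 7.57 over 13 immediate-early genes, the fast transcription factors of acute stress, while the other 9 mice lay between 3.12 and 4.25. The median correlation of 20 mg/kg mouse 2 with its own group, 0.79, was close to that of the other mice at this dose, 0.795 to 0.84. Some results below are also given without these mice, but those given with all 10 mice can depend on them too. All 12 hepatocyte markers were detected in each group, and Ddx3y, a Y-linked gene, was at 14.7 to 30.0 TPM in the 6 males and at 0 to 1.95 TPM in the 4 females, as their labels say. Mouse F9, which this strain lacks, was at 0 to 6.14 TPM in the 10 mice, and the human FIX mRNA is not in the mouse transcript set.

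Upf3b was lower on average at 20 than at 10 mg/kg, but it varied widely among the 10 mg/kg mice and the difference did not pass the test. At 20 mg/kg the 5 mice had 9.37, 2.68, 2.57, 16.7 and 7.68 TPM, a mean of 7.80 ± 5.82 (SD, n = 5). At 10 mg/kg they had 5.97, 20.7, 53.7, 3.95 and 23.3 TPM, a mean of 21.5 ± 20.0 (SD, n = 5). The 2 lowest mice of the 10 mg/kg group lay inside the range of the 20 mg/kg group, so the groups overlapped.

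The difference was -1.11 on the log2(TPM + 1) scale with sex in the model, with a 95% interval from -2.57 to 0.34. It was not significant in limma (unadjusted p = 0.126), nor in the two-sided exact permutation test (p = 0.183, n = 5 and 5, smallest possible 0.00794). The mean difference was -1.04 in females and -1.16 in males. It was -1.58 (limma unadjusted p = 0.0339) without 10 mg/kg mouse 1, -1.51 (p = 0.047) without 10 mg/kg mouse 4 and -1.52 (p = 0.0468) without 20 mg/kg mouse 5. It was smaller without the outlying mice, at -0.67 (p = 0.343) without 10 mg/kg mouse 3 and -0.35 (limma unadjusted p = 0.62) without that mouse and 20 mg/kg mouse 2.

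Set against the control ASO, which measures the background, 20 mg/kg left 7.04 ± 5.25% (SD, n = 5) of the mean of the control 20 mg/kg mice, whose levels ran from 85.3 to 135 TPM with a mean of 111. Mice at 10 mg/kg kept 37.3 ± 34.5% (SD, n = 5) of the mean of the control 15 mg/kg mice, with single mice from 6.83 to 93.0%, the highest of them, mouse 3, inside the control range of 27.1 to 78.7 TPM. The controls themselves were not level, since the 15 mg/kg mice held 57.8 ± 22.1 TPM (SD, n = 4) and Upf3b was 1.0 higher on the log2 scale at the larger control dose (limma unadjusted p = 0.00122). DPBS mice held 97.3 ± 33.2 TPM (SD, n = 11), so the percent kept at 10 mg/kg depends on the control chosen. The study's qPCR, relative to DPBS mice and to Gapdh, reported a deeper reduction of liver Upf3b at 10 mg/kg in this strain. Against its own control Upf3b fell by 3.87 at 20 mg/kg (limma adjusted p = 1.59e-05), while the difference of -1.73 at 10 mg/kg did not pass (adjusted p = 0.211). The direct test of whether those 2 effects differ gave an unadjusted p of 0.00646, and a limma adjusted p of 0.455, so it did not pass. In whole liver, fewer cells that express a gene and less of its RNA per cell cannot be told apart.

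**Figure D1:**
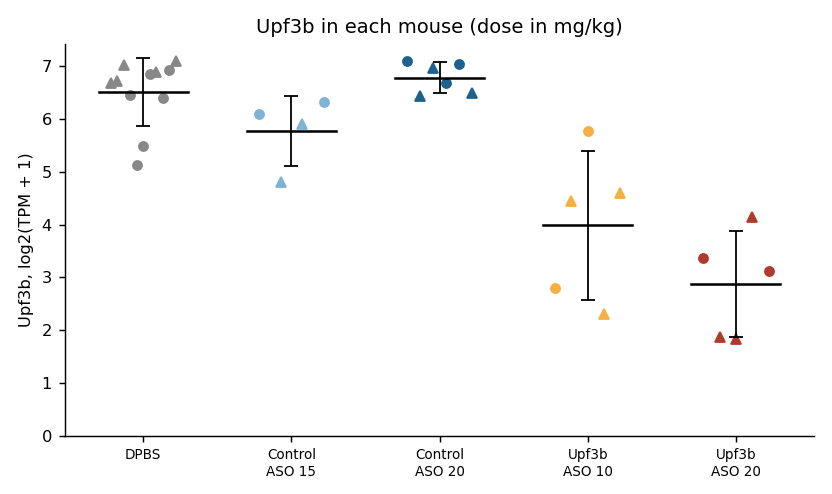
Upf3b level in log2(TPM + 1) for each mouse by group, with circles for females, triangles for males, and the group mean with its SD in black. Both Upf3b ASO groups sit below most control mice, and the 10 mg/kg mice, from 3.95 to 53.7 TPM, overlap the 20 mg/kg mice, from 2.57 to 16.7 TPM.

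The other NMD factors showed little that separated the doses. Of 16 tested members of the pathway list, 7 were higher and 9 lower at 20 mg/kg, with a median difference of -0.14 against -0.002 over all 9187 genes tested. Smg1, which encodes the kinase that activates UPF1, was at 3.62, 5.38, 0.921, 5.86 and 3.08 TPM at 20 mg/kg and at 7.15, 15.8, 15.1, 14.3 and 11.6 TPM at 10 mg/kg. The 2 groups of Smg1 did not overlap, and its difference of -1.61 ± 0.59 (SE) had an unadjusted p of 0.0138 but did not pass after adjustment (limma adjusted p = 0.891). The 20 mg/kg mice lay below the control ASO mean of 12.9 ± 8.89 TPM (SD, n = 6), and the 15 mg/kg control had a mean of 9.19 ± 3.94 TPM (SD, n = 4), and single control mice overlapped those of both doses.

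Upf2, the adaptor between UPF1 and UPF3B, had levels of 109, 66.4, 90.3, 159 and 188 TPM at the larger dose and 163, 118, 681, 101 and 143 TPM at the smaller one. The value of 681 TPM is that of the outlying 10 mg/kg mouse 3. Against the 15 mg/kg control, Upf2 rose by 2.39 at 10 mg/kg (limma adjusted p = 0.0491), while the 20 mg/kg mice differed from their own control by 0.66 (adjusted p = 0.257). Between the doses the difference of -0.65 had a 95% interval from -1.53 to 0.23. Upf1, Upf3a, Smg5, Smg6 and Smg9, further UPF and SMG factors, had differences between -0.91 for Upf3a and 0.28 for Smg9, each with overlapping mice. Gspt1, which encodes the termination factor eRF3a, differed by -0.93 (95% interval from -1.94 to 0.08). Xrn1, the exonuclease that degrades the 3′ fragment, differed by 0.22 with an interval from -0.71 to 1.15.

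mRNAs reported elsewhere as NMD substrates did not separate the doses as a list. Of 21 tested, 15 were higher and 6 lower, with a median difference of 0.14, and 1 had an unadjusted p under 0.05, near the 5.05% of all genes. That gene was Atf4, the transcription factor of the integrated stress response, whose upstream reading frames expose it to NMD. Its levels were 526, 628, 379, 715 and 517 TPM at 20 mg/kg and 359, 413, 265, 308 and 328 TPM at 10 mg/kg. All but 1 of the 20 mg/kg mice lay above every 10 mg/kg mouse, and the difference of 0.71 ± 0.31 (SE) did not pass (limma unadjusted p = 0.0347, adjusted p = 0.891). Ddit3, which encodes the stress factor CHOP, had the largest difference of the list at 1.68, with an SE of 0.94. Without 10 mg/kg mouse 3 and 20 mg/kg mouse 2 the list's median difference was 0.07, with 12 higher and 9 lower. Exon junction complex genes had a median difference of -0.04 over 8 genes, and the genes of ASO uptake and RNase H a median of 0.02 over 13.

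Across the transcriptome no gene passed an adjusted p of 0.05 between 20 and 10 mg/kg, that is 0 of 9187 genes tested (0%) in limma with Benjamini-Hochberg adjustment. At an unadjusted p under 0.05 there were 464 genes, or 5.05% of those tested. At 2-fold or more with p no higher than 0.01 before adjustment, a criterion like that used in the study, 24 genes were higher and 36 lower, 0.653% of those tested. That count of 60 was 264 without 10 mg/kg mouse 1, 96 without 20 mg/kg mouse 5, and 37 without 10 mg/kg mouse 3 or without 20 mg/kg mouse 1. Mice of the 2 doses did not overlap for 70 genes, or 0.762%. The median distance from a gene's estimate to the bound of its 95% interval was 1.09 log2 units with 5 mice per group. Estimated differences were under 2-fold for 88.8% of genes.

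The control ASO was compared in the same way between its own doses, 20 and 15 mg/kg. There, too, 0 of 9222 genes passed the adjusted threshold, with 887 genes at an unadjusted p under 0.05, but 142 genes were higher and 20 lower at 2-fold and p no higher than 0.01 before adjustment, which is 1.76% of those tested. These 2 control groups hold 6 and 4 mice and differ by 5 mg/kg. The test of whether the Upf3b ASO and control ASO dose steps differ called 0 of 9797 genes after adjustment and 799 at an unadjusted p under 0.05. The test of whether females and males differed in their dose step called 0 of 9187 genes after adjustment and 362 at an unadjusted p under 0.05.

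**Figure D2:**
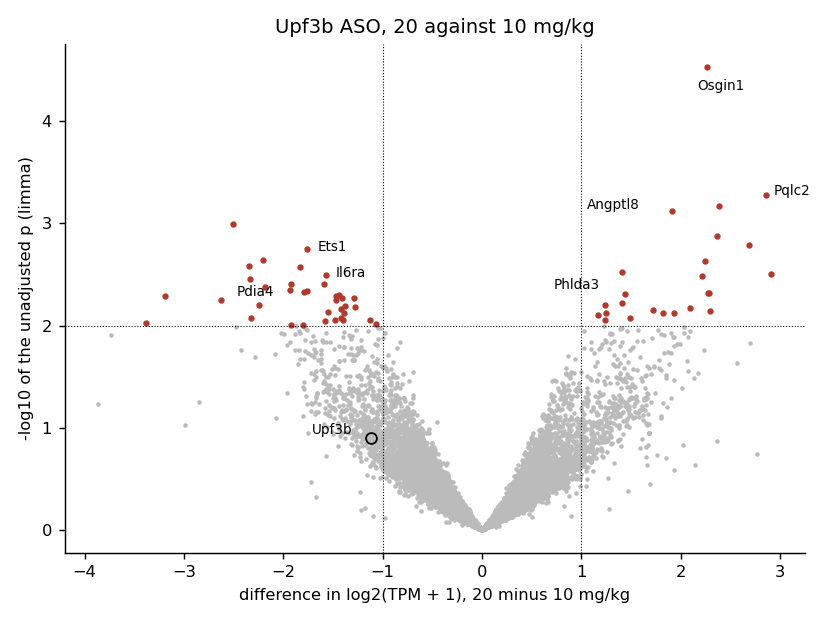
Difference between 20 and 10 mg/kg of the Upf3b ASO in log2(TPM + 1) against -log10 of the unadjusted limma p for 9187 genes, with the 60 genes at 2-fold or more and p of at most 0.01 in red. Osgin1 stands highest, and Upf3b, circled, lies below the dotted line at p = 0.01.

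Osgin1 had the smallest p of all genes. It encodes an oxidative stress response growth inhibitor and is a target of NRF2, the regulator of antioxidant genes. Its levels were 236, 473, 459, 378 and 427 TPM at 20 mg/kg and 113, 181, 35.3, 91.2 and 45.9 TPM at 10 mg/kg. Every 20 mg/kg mouse lay above every 10 mg/kg mouse. The difference was 2.27 ± 0.41 (SE), with an unadjusted p of 2.94e-05 and a limma adjusted p of 0.27, while the next gene's adjusted p was 0.891. It was 2.31 in females and 2.24 in males, and kept between 1.93 and 2.54 in all 21 alternatives run. Control ASO mice held 68.0 ± 45.8 TPM at 20 mg/kg (SD, n = 6) and 39.5 ± 18.6 TPM at 15 mg/kg (SD, n = 4). Osgin1 thus rose by 2.68 at 20 mg/kg against its control (limma adjusted p = 0.000314), while 10 mg/kg differed by 1.07 (adjusted p = 0.304).

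Of 15 NRF2 targets tested, Osgin1 included, 11 were higher and 4 lower with a median difference of 0.35, and the median was -0.01 without 10 mg/kg mouse 3 and 0.21 without that mouse and 20 mg/kg mouse 2. Srxn1, which encodes sulfiredoxin, differed by 0.51, Gclm, a subunit of the enzyme that starts glutathione synthesis, by 0.01 and Txnrd1, thioredoxin reductase, by -0.95, each with an unadjusted p above 0.1. Hmox1, the heme-degrading oxygenase, was at 3968 TPM in 20 mg/kg mouse 2 and at 171 to 276 TPM in the other 4 mice of that dose, against 46.1 to 231 TPM at 10 mg/kg. Its difference of 1.53 (unadjusted p = 0.0389) was 0.77 without mouse 2. Me1, malic enzyme, was lower at 20 mg/kg with 172, 50.5, 141, 151 and 148 TPM against 202, 273, 287, 176 and 268 TPM. The 2 groups of Me1 did not overlap (difference -0.95 ± 0.37 SE, limma adjusted p = 0.891).

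Angptl8 encodes a secreted inhibitor of lipoprotein lipase that feeding and insulin induce. It was at 30.3, 169, 72.3, 58.6 and 74.5 TPM at 20 mg/kg and at 28.6, 22.1, 11.8, 8.90 and 26.3 TPM at 10 mg/kg, with no overlap. The difference of 1.91 ± 0.47 (SE, unadjusted p = 0.00075) stayed between 1.44 and 2.19 over 21 alternatives but did not pass adjustment (limma adjusted p = 0.891). Angptl8 also differed between the control doses, by 1.49 (unadjusted p = 0.00545), with 29.4 ± 16.2 TPM at 20 mg/kg (n = 6) and 8.95 ± 5.17 TPM at 15 mg/kg (n = 4). The difference between the Upf3b ASO and control ASO dose steps had an unadjusted p of 0.57 for this gene. Scd2, a stearoyl-CoA desaturase, was at 5.95 to 9.79 TPM at 20 mg/kg and at 0.498 to 4.99 TPM at 10 mg/kg, again without overlap. Srebf1, the insulin-responsive regulator of fatty acid synthesis, overlapped, at 31.2 to 157 TPM against 23.4 to 59.3 TPM. Their list of 39 cholesterol and fatty acid synthesis genes had a median difference of -0.14, with 16 higher and 23 lower.

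Other genes past 2-fold with p no higher than 0.01 before adjustment and no overlap of mice were named by rule. Those higher at 20 mg/kg included Osgin1, Pqlc2, Angptl8, Ccdc108, Map3k11, Alpl, Ralgds and Tdg. Alpl, the tissue-nonspecific alkaline phosphatase, was at 73.1, 67.6, 50.7, 88.4 and 138 TPM at the larger dose and at 30.5, 43.0, 16.7, 38.9 and 44.6 TPM at the smaller one. The means of the control ASO groups lay between, at 58.3 ± 16.4 TPM (20 mg/kg, n = 6) and 57.9 ± 27.4 TPM (15 mg/kg, n = 4). Tdg, the thymine DNA glycosylase of base excision repair, was at 55.4 to 70.8 TPM against 11.3 to 40.3 TPM. The criterion of 2-fold and p of at most 0.01 was met in 9 of 21 alternatives for Tdg. For Alpl it was met in 14 of 21, and for Map3k11 in 17 of 20. Map3k11, a kinase upstream of JNK signalling, was at 11.9 to 23.02 TPM against 0 to 9.95 TPM, and lost the criterion of 2-fold and p of at most 0.01 without 10 mg/kg mouse 5, without 20 mg/kg mouse 1 or without both outlying mice. Pqlc2, a lysosomal amino acid transporter, was near the depth limit at 10 mg/kg with 0 to 1.24 TPM, where 3 reads are worth 0.651 to 2.94 TPM.

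Genes lower at 20 mg/kg under the same rule were Ets1, Mkrn2, Il6ra, Dynlt1c, Banp, Ankle2, Gas2, Mpp5, Ttc9c, Nnt and Pum3. Il6ra, the receptor subunit through which interleukin 6 drives the hepatic acute-phase response, was at 12.1, 17.6, 5.99, 20.1 and 14.1 TPM at 20 mg/kg. At 10 mg/kg it was at 38.9, 27.7, 96.9, 26.8 and 39.4 TPM, every mouse above those of the larger dose. Its difference was -1.57 ± 0.46 (SE, unadjusted p = 0.00322, limma adjusted p = 0.891). Il6ra levels at 10 mg/kg were close to those of the 15 mg/kg control, from which they differed by -0.01, while 20 mg/kg differed from its own control by -1.01 (adjusted p = 0.197). Ets1, a transcription factor of endothelial and lymphoid cells, was at 3.91 to 11.1 TPM against 13.9 to 35.3 TPM, and passed the 2-fold criterion in all 21 alternatives. Nnt, the mitochondrial transhydrogenase that supplies NADPH, was at 5.37 to 14.9 TPM against 16.1 to 36.3 TPM, and met that criterion in 10 of 21. Ankle2, of the nuclear envelope, was at 2.33 to 8.95 TPM against 10.4 to 28.4 TPM, and met the 2-fold criterion in 13 of 20 alternatives. It was the 1 gene of these 11 that fell against its own control at 20 mg/kg, by 1.76 (limma adjusted p = 0.0476). Of all genes, 2.52% passed there in either direction. The 11 were chosen as lower in the same 20 mg/kg mice, so nothing is read from this count. Mkrn2 was at 0 to 1.85 TPM at 20 mg/kg, at the depth limit, and at 3.09 to 10.8 TPM at 10 mg/kg. Dynlt1c has near-identical copies, so reads counted to it are uncertain.

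Phlda3, a p53 target that inhibits AKT, was the gene of the p53 list with the smallest p. It was at 86.5, 15.7, 46.5, 33.7 and 81.7 TPM at 20 mg/kg and at 42.5, 10.7, 12.7, 11.3 and 15.0 TPM at 10 mg/kg. Mice of all control ASO groups held 0 to 8.48 TPM, below every Upf3b ASO mouse at either dose. Phlda3 rose by 4.05 at 20 mg/kg against its control (limma adjusted p = 8.54e-05) and was 1.82 higher at 10 mg/kg (adjusted p = 0.136). The direct difference between doses was 1.44 ± 0.45 (SE, unadjusted p = 0.00486), and the doses overlapped through 10 mg/kg mouse 1.

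Of 16 p53 targets tested, 14 were higher and 2 lower at 20 mg/kg, with a median difference of 0.45, beside -0.002 over all genes and a median of -0.18 in the control ASO step. The list's median was 0.41 without 10 mg/kg mouse 3 and 20 mg/kg mouse 2. Over the 16 genes the mean log2(TPM + 1) was highest in 20 mg/kg mouse 2, at 6.25. It was 4.85 to 5.86 in the other mice of that dose and 4.67 to 5.32 at 10 mg/kg, so the doses overlapped. Bax, a pro-apoptotic effector, differed by 0.76, Mdm2, the negative regulator of p53, by 0.47, and Sesn2, a stress-induced inhibitor of mTOR signalling, by 0.96, each with an unadjusted p above 0.05. Against the control ASO at 20 mg/kg 3 of 16 targets rose (2.52% of all genes passed in either direction), with a list median of 1.05. At 10 mg/kg 0 of 16 passed, where 0.295% of all genes did, with a median of -0.11. Phlda3 alone of the 16 targets met the criterion of 2-fold and p of at most 0.01 between the doses (1 of 16, against 0.653% of all genes). It lost that criterion without sex as covariate, with all 31 mice in the fit, with the replicate number as a block, and without 10 mg/kg mouse 2 or 3 or 20 mg/kg mouse 1, 4, 5 or 6, its difference staying between 1.13 and 1.70.

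**Figure D3:**
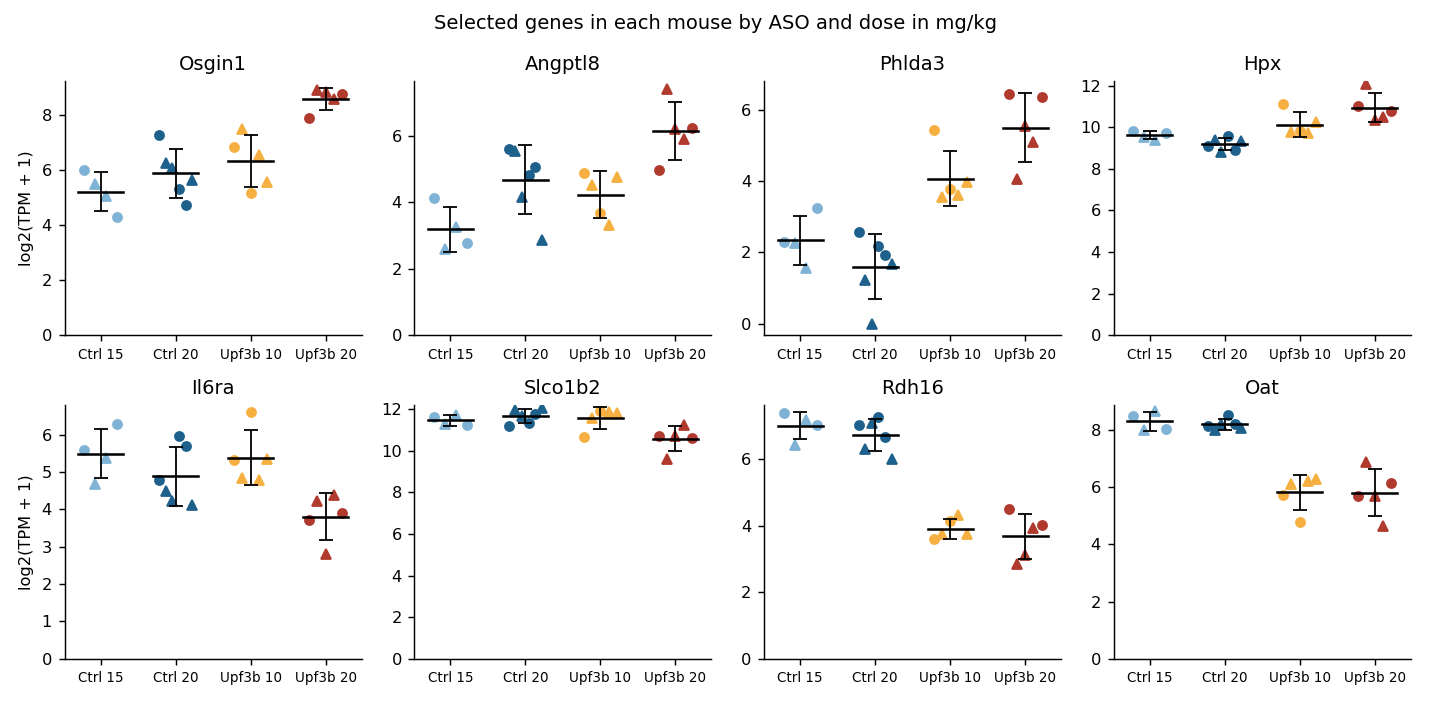
Levels of 8 genes in log2(TPM + 1) for each mouse given control or Upf3b ASO, with circles for females, triangles for males, and the mean with its SD in black. Osgin1, Angptl8, Phlda3 and Hpx were higher on average at 20 than at 10 mg/kg, Il6ra and Slco1b2 were lower, and Rdh16 and Oat were low at both doses.

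Each dose was also set against its own control ASO group, and the genes called at each dose were compared. At 10 mg/kg 27 of 9166 genes passed adjustment against the 15 mg/kg control (0.295%), 11 higher and 16 lower. At 20 mg/kg 236 of 9376 genes passed against the 20 mg/kg control (2.52%), 87 higher and 149 lower. Leaving out 1 mouse at a time gave 2 to 431 genes at 10 mg/kg (2 without control 15 mg/kg mouse 3, 431 without 10 mg/kg mouse 1) and 70 to 270 at 20 mg/kg (70 without control 20 mg/kg mouse 3). At 2-fold and p no higher than 0.01 before adjustment, the counts were 441 (4.81%) and 584 (6.23%). The 2 comparisons share no mouse. All 27 genes called at 10 mg/kg had the same sign at 20 mg/kg, 22 of them with an unadjusted p under 0.05, whereas 60.4% of all 8745 genes tested in both had the same sign. Of the 233 genes called at 20 mg/kg and tested at 10 mg/kg, 202 had the same sign. Across the 8745 genes the log2 differences had a Pearson correlation of 0.35 and a Spearman correlation of 0.30, as a description across genes, which are not independent replicates.

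Called at both doses were 15 genes, 55.6% of those called at 10 mg/kg and 6.36% of those called at 20 mg/kg. They were chosen after their values were seen. Adora1, Elp6, Isg15 and Lrrc17 rose, and Dpyd, Gstt3, Lipc, Maob, Oat, Ptdss1, Rdh16, Scd1, Serpina1e, Sil1 and Slc47a1 fell. For the 13 of them expressed enough to be tested between doses, the difference lay between -0.95 and 0.81, 9 being further from control at the larger dose. None had an unadjusted p under 0.05, against 5.05% of all genes. The calls at both doses use the same Upf3b ASO mice and favour genes with similar values, so nothing is read from this count. The count of 15 depended on single mice of the smaller groups. It was 2 without control 15 mg/kg mouse 3 and 51 without 10 mg/kg mouse 1.

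Lipc, the hepatic lipase that hydrolyses lipoprotein triglycerides, was at 0, 0.96, 0, 2.44 and 0 TPM at 20 mg/kg and at 0, 0.746, 0.98, 0 and 0.258 TPM at 10 mg/kg. Control ASO mice held 26.0 to 138 TPM. Both Upf3b ASO groups thus sat near the depth limit, 3 reads being worth 0.576 to 2.94 TPM, and no fold between doses can be given. Rdh16, a retinol dehydrogenase, was at 21.6, 6.15, 7.67, 14.2 and 15.0 TPM and at 11.1, 12.4, 16.7, 18.8 and 12.3 TPM, against control means of 109 ± 34.5 (n = 6) and 130 ± 33.3 TPM (n = 4). Its dose difference was -0.23 with a 95% interval from -1.26 to 0.81. Sil1, a nucleotide exchange factor of the endoplasmic reticulum chaperone BiP, was at 0 to 5.11 TPM and 0 to 5.21 TPM, against 20.3 to 48.8 TPM in control ASO mice.

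Oat, ornithine aminotransferase, was at 50.3, 116, 51.1, 23.9 and 69.2 TPM and at 51.3, 67.7, 26.5, 72.5 and 77.3 TPM, with control ASO mice from 253 to 407 TPM. The dose difference was -0.01, with an interval from -0.93 to 0.91. Maob, monoamine oxidase B, differed by -0.95 between doses (interval from -2.34 to 0.45), Dpyd, the rate-limiting enzyme of pyrimidine breakdown, by -0.46 (interval from -1.63 to 0.72) and Scd1, the main hepatic stearoyl-CoA desaturase, by -0.61 (interval from -1.36 to 0.13). These intervals still allow changes of about 2-fold or more, so equal effects at both doses were not shown. Serpina1e and Gstt3 belong to families of close paralogs, so their counts are uncertain. Among genes that passed against control at 10 mg/kg only, Kri1, Ifi44, Dlgap5 and Gm10160 had dose differences of -0.37, -0.90, -1.41 and -1.49. In 3 of these, Ifi44, Dlgap5 and Gm10160, the highest of the 10 mice was 10 mg/kg mouse 3, at 103, 539 and 359.8 TPM.

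**Figure D4:**
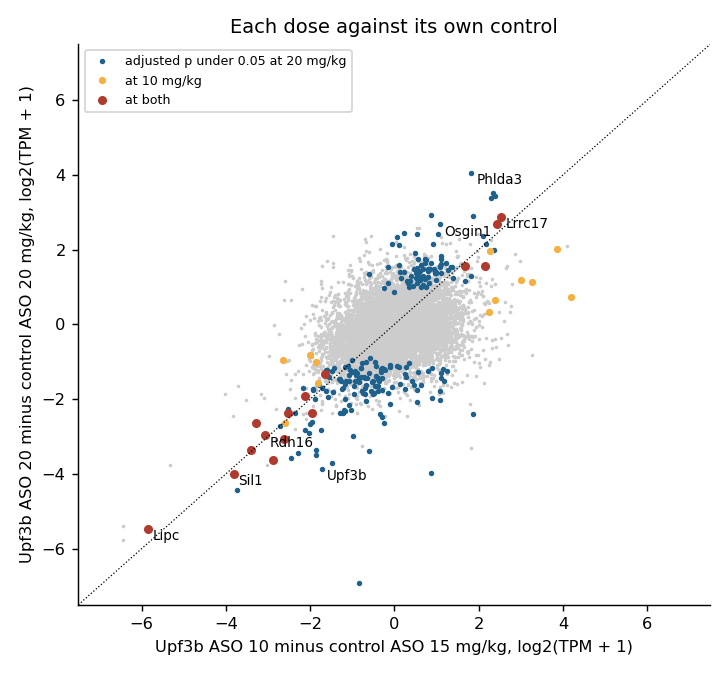
Difference from the control ASO in log2(TPM + 1) at 10 mg/kg (x axis, against control at 15 mg/kg) and at 20 mg/kg (y axis, against control at 20 mg/kg) for 8745 genes tested in both, with the line of equal values dotted. The 15 genes called at both doses, in red, lie on the same side of 0 at both, and Phlda3 and Osgin1 lie above it.

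A further set differed between the doses at an unadjusted p under 0.05 and passed against control at 20 mg/kg. Of 56 genes named by rule with an unadjusted p under 0.05 between doses, 13 passed against the 20 mg/kg control, where 2.52% of all genes passed. Both comparisons use the same 20 mg/kg mice, so nothing is read from this count or from its directions. Higher were Osgin1, Phlda3, Hpx, Tap1 and Egfl7. Lower were Slco1b2, Abcc2, Slc1a2, Dnajc3, Thrb, Lepr, Hlf and Ankle2. None of the 13 passed against control at 10 mg/kg, where 0.295% of all genes passed. Their choice by a difference between the doses also favours this, so nothing is read from it.

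The bile acid and drug transporters Slco1b2, an uptake carrier of the sinusoidal side, and Abcc2, the canalicular exporter of conjugated bilirubin, belong to a list of 25 genes with a median difference of -0.36, with 9 higher and 16 lower. Slco1b2 was at 1666, 785, 1672, 2434 and 1578 TPM at 20 mg/kg and at 1599, 3000, 3869, 3727 and 3591 TPM at 10 mg/kg. All but 1 of the 10 mg/kg mice lay above every 20 mg/kg mouse, and the difference was -0.98 ± 0.35 (SE, unadjusted p = 0.0119). Abcc2 was at 160, 23.2, 157, 204 and 133 TPM against 171, 337, 717, 178 and 211 TPM, with both extremes in the 2 outlying mice. Its difference of -1.31 ranged from -1.63 to -0.32 over 21 alternatives. Nr0b2, which encodes SHP, the bile acid-induced repressor of bile acid synthesis, was higher on average at 20 mg/kg, at 11.1 to 37.5 TPM against 2.32 to 32.3 TPM, with a difference of 1.59 ± 0.63 (SE). Without 20 mg/kg mouse 2 the list's median was -0.01.

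Slc1a2, a glutamate transporter of pericentral hepatocytes, was at 42.2, 24.8, 43.5, 26.8 and 21.2 TPM at 20 mg/kg and at 37.8, 77.7, 58.5, 60.9 and 58.6 TPM at 10 mg/kg, against 119 to 222 TPM in the 20 mg/kg control. The 2 Upf3b ASO groups overlapped through 10 mg/kg mouse 1, and their difference was -0.89 ± 0.38 (SE, unadjusted p = 0.0298). Thrb, a thyroid hormone receptor, was at 4.05 to 10.1 TPM at 20 mg/kg and 4.90 to 36.3 TPM at 10 mg/kg, against means of 25.0 and 49.9 TPM in the 2 control ASO groups. Pck1, the gluconeogenic enzyme, was at 1525, 3835, 1382, 1772 and 1712 TPM against 4092, 3462, 4104, 3227 and 2528 TPM, a difference of -0.85 ± 0.32 (SE, unadjusted p = 0.0164). It did not pass against control at either dose (adjusted p = 0.0702 at 20 mg/kg and 0.0654 at 10 mg/kg).

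Egfl7, which endothelial cells secrete, was at 360, 267, 248, 266 and 276 TPM against 315, 197, 73.5, 88.1 and 171 TPM. The summed TPM of 14 endothelial markers was 1893 to 2633 at 20 mg/kg and 1212 to 2530 at 10 mg/kg. It was 778 to 1899 in the 20 mg/kg control and 780.9 to 1339 in the 15 mg/kg control. In DPBS mice it was 797.5 to 2705, which covers the range at 20 mg/kg. Each of the 14 was above 0 in at least 1 mouse of each group. Of 12 endothelial markers tested, 6 were higher and 6 lower between doses. The part of endothelial cells in the result was not tested. Kupffer cell and macrophage markers summed to 458 to 1057 TPM at 20 mg/kg and 382 to 983 TPM at 10 mg/kg.

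Acute-phase genes encode proteins that hepatocytes secrete in inflammation. Of 22 tested, 18 were higher at 20 mg/kg and 4 lower, with a median difference of 0.70, and 3 had an unadjusted p under 0.05, against 5.05% of all genes. Hp, haptoglobin, was at 4542, 10680, 3598, 3460 and 4127 TPM at 20 mg/kg and at 3533, 3006, 1289, 1803 and 2876 TPM at 10 mg/kg. The highest value was again that of 20 mg/kg mouse 2, and Hp differed by 1.03 ± 0.37 (SE, unadjusted p = 0.0113), with 0.42 to 1.25 over 21 alternatives. Hpx, hemopexin, was at 2092, 4271, 1285, 1440 and 1774 TPM against 2215, 860, 901, 837 and 1230 TPM, and rose by 1.75 against the control at 20 mg/kg (limma adjusted p = 0.00217). Its difference between doses was 0.81, with 0.25 to 1.07 over 21 alternatives. Over the 22 genes the mean log2(TPM + 1) was 9.35 in 20 mg/kg mouse 2 and 6.80 to 7.43 in the other 4 mice of that dose, beside 6.18 to 7.13 at 10 mg/kg. Without 20 mg/kg mouse 2 the list's median was 0.40, where that of all genes was 0.104, and it was 0.23 without that mouse and 10 mg/kg mouse 3, with 14 genes higher, 7 lower and 0 at an unadjusted p under 0.05.

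Immediate-early genes depended still more on 1 mouse. Of 13 tested, 12 were higher with a median difference of 1.0, and 0 had an unadjusted p under 0.05. Dusp1, a phosphatase that ends MAP kinase signalling, had the largest difference, 1.86 with an SE of 0.94. The median was 0.37 without 20 mg/kg mouse 2 and 0.09 without both outlying mice. Mouse 2 had been set apart partly by its level of these same genes, so this fall follows from that choice. Cytosolic ribosomal protein genes were higher in 74 of 79 with a median of 0.31, which was 0.10, with 55 higher, without 10 mg/kg mouse 3. Antigen presentation genes were higher in 16 of 17 with a median of 0.31, but in 13 of 17 with a median of 0.16 without 10 mg/kg mouse 3, and of 0.27 without both mice. Interferon-stimulated genes, of which Isg15 rose at each dose against control, had 18 higher and 16 lower and a median of 0.03.

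Genes of the stress response in the endoplasmic reticulum went both ways, with 13 higher and 15 lower of 28 and a median of -0.05. Pdia4, a protein disulfide isomerase, was at 10.9 to 22.6 TPM at 20 mg/kg and at 30.9, 177, 225, 88.8 and 18.3 TPM at 10 mg/kg. Its difference of -1.92 ± 0.58 (SE, unadjusted p = 0.0039) lost the criterion of 2-fold and p of at most 0.01 without 10 mg/kg mouse 2, 3 or 4 or 20 mg/kg mouse 2. Dnajc3, a co-chaperone of the same compartment, differed by -1.21 ± 0.46 (SE), with -1.57 to -0.44 over 21 alternatives. Heat shock genes had 7 higher and 13 lower with a median of -0.38.

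Major urinary proteins, pheromone carriers that the male liver secretes under growth hormone control, were lower at 20 mg/kg in 15 of 16 genes with a median of -1.02. In 6 of the 16 the unadjusted p was under 0.05, against 5.05% of all genes. That count was 1 without 20 mg/kg mouse 1 and 8 without 20 mg/kg mouse 4, the extremes when 1 mouse was left out. The control ASO step had a median of -0.40 over 16 genes of this list, beside 0.06 over all genes. Mup3 was at 218, 1564, 2507, 2259 and 644 TPM at 20 mg/kg, where mice 1 and 6 are the females, and at 714, 4724, 1436, 3720 and 2432 TPM at 10 mg/kg, where mice 1 and 3 are. Within each sex the higher levels were mostly at 10 mg/kg, and with sex in the model the difference was -1.03 ± 0.36 (SE, unadjusted p = 0.0106). In limma without sex as a covariate 1 of the 16 had an unadjusted p under 0.05. The list's median was -0.64 without both outlying mice. These genes are near-identical to each other, so their reads are not independent and their split between members is uncertain. C6, a complement component with higher levels in males, differed by -1.55 ± 0.52 (SE), and the male-biased list had 6 higher and 10 lower of 16.

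The further lists of hepatocyte metabolism and regulation given in this paragraph had medians between -0.20 and 0.08. The 38 genes of cytochrome P450 families 1 to 4 had 16 higher and 22 lower with a median of -0.02, and 0 with an unadjusted p under 0.05. That split also depended on single mice, with 10 higher and 29 lower (median -0.23) without 10 mg/kg mouse 3 and 27 higher and 12 lower (median 0.11) without 20 mg/kg mouse 2. Glutathione S-transferases had 10 higher and 10 lower with a median of 0.03, coagulation genes 14 higher and 9 lower with a median of 0.08, and fatty acid oxidation genes 20 higher and 17 lower with a median of 0.05. Glucuronosyl- and sulfotransferases had 3 higher and 12 lower with a median of -0.17. Of the transcription factors and nuclear receptors, 13 were higher and 17 lower with a median of -0.20. Lepr, the leptin receptor, was at 4.99, 4.55, 0.876, 0 and 7.83 TPM at 20 mg/kg and at 9.57, 8.00, 41.8, 9.39 and 6.398 TPM at 10 mg/kg. In control ASO mice it was at 0.557 to 6.23 TPM at 15 mg/kg and at 9.37 to 32.9 TPM at 20 mg/kg, and the test of the 2 dose steps against each other, with an unadjusted p of 1.29e-05, did not pass adjustment (limma adjusted p = 0.126).

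**Figure D5:**
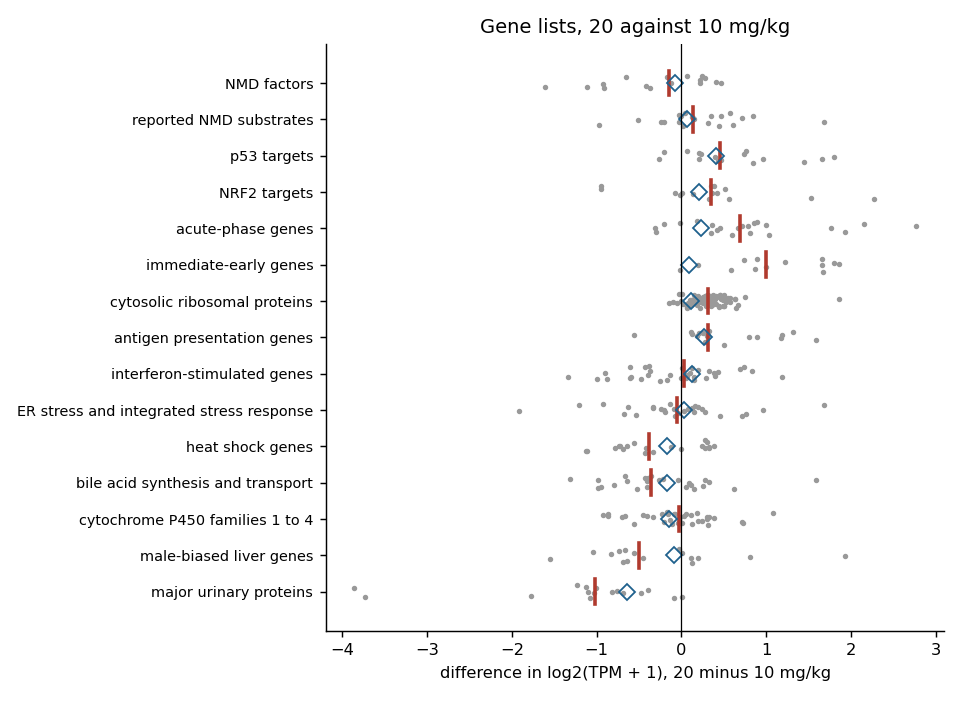
Difference between 20 and 10 mg/kg in log2(TPM + 1) for the tested members of 15 gene lists, each grey point a gene, with the list's median as a red bar and the median without 10 mg/kg mouse 3 and 20 mg/kg mouse 2 as an open blue diamond. The medians of the immediate-early and acute-phase lists move most when these 2 mice are left out, from 1.0 to 0.09 and from 0.70 to 0.23, while that of p53 targets goes from 0.45 to 0.41. The immediate-early genes were themselves part of what set 20 mg/kg mouse 2 apart.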

How the data were processed

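Per the labels, liver RNA was prepared with a 3′ digital gene expression kit (the methods name TruSeq, and which was used could change what a TPM measures), and per the submitters' processing notes reads were handled with bcl2fastq 2.17.1.14 and Salmon 0.7.2 against mouse transcripts of GRCm38.p4. The authors deposited 1 table per mouse with a TPM value per gene symbol. Of 31198 symbols, 26 had been turned into dates and were left out. Between 69.9 and 81.5% of values above 0 were whole multiples (within 0.02) of the most frequent step, from which depths of 1020676 to 7391615 reads were estimated. That share is too low for a count test.

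Genes whose median reached 5 TPM in either group were tested as log2(TPM + 1), so fold changes of low genes are understated. The model was limma 3.58.1 (R 4.3.3, trend and robust, sex as covariate) with Benjamini-Hochberg adjustment over all genes tested, and it was tested on simulated data. A control ASO group at 10 mg/kg was not analysed here, so 10 mg/kg mice were set against control at 15 mg/kg.

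The members and lists were chosen with earlier results of these data known. Genes named were Upf3b and the NMD factors, up to 12 each way past adjustment or else past 2-fold with p no higher than 0.01 before adjustment and no overlap of mice, and up to 3 per list with the smallest unadjusted p under 0.05. Gapdh, F9, Ddx3y and 10 genes seen before were added. Gene models without a name, 3 of the 60 called, were counted but not named. Some genes that the rule names are counted but not reported here. Intervals and floors cover counting or replicate error only. Differences between doses were recomputed with other pseudocounts, filters, scalings and models, and without each mouse.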

Additional observations from a re-analysis of the deposited data

Results flagged for a closer look

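In 19 of 182 sets, each of 1 named gene in 1 Upf3b ASO group of 5 mice, 1 mouse lay far from the other 4 by Dixon's test on log2(TPM + 1). Chance gives about 1 in 20. Of the 19, 20 mg/kg mouse 2 accounted for 7 and 10 mg/kg mouse 3 for 6. In 20 mg/kg mouse 2 the values were 3970 TPM for Hmox1, 10700 TPM for Hp and 3840 TPM for Pck1, above the other 4 mice, and 2.69 TPM for Pnrc2, 50.5 TPM for Me1, 23.2 TPM for Abcc2 and 10.9 TPM for Pdia4, below them. In 10 mg/kg mouse 3 they were 681 TPM for Upf2, 258 TPM for Sult1d1, 298 TPM for Nr5a2 and 41.8 TPM for Lepr, above the others, and 11.3 TPM for Tdg and 2.94 TPM for Tap1, below them. In 10 mg/kg mouse 1, Phlda3 was high at 42.5 TPM and Slco1b2 low at 1600 TPM. In 20 mg/kg mouse 5, Smg9 was high at 46.3 TPM and Ralgds low at 46.4 TPM. Egfl7 was high in 20 mg/kg mouse 1 at 360 TPM, and Ccdc108 in 10 mg/kg mouse 2 at 3.73 TPM.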

How the results depend on the processing

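No gene passed an adjusted p of 0.05 between 20 and 10 mg/kg under any alternative run, the smallest adjusted p being 0.0905 without 10 mg/kg mouse 1. The count at 2-fold and p no higher than 0.01 before adjustment, 60 as reported, was 30 among genes whose median reached 20 TPM, 178 with all 31 mice in the fit, and 37 to 264 when 1 mouse was left out. The Upf3b difference kept its value of -1.11 with all 31 mice, with an unadjusted limma p of 0.0283, ranged from -1.58 to -0.67 when 1 mouse was left out, and was -0.35 (unadjusted limma p = 0.62) without 10 mg/kg mouse 3 and 20 mg/kg mouse 2. Of the 24 named genes past 2-fold and p of at most 0.01, 24 kept their sign in every alternative in which they were tested. Most of them were named because their mice did not overlap between the doses, so this was largely set by that choice. Leaving out 1 mouse gave 0 to 13 adjusted calls for the difference of the dose steps and 113 to 407 at 2-fold. For the control ASO step, adjusted calls went from 0 to 6 with a pseudocount of 5 and were 0 to 9 when 1 mouse was left out, and its 162 genes at 2-fold were 100 at that filter and 98 to 259 when 1 mouse was left out. Against control, the 236 genes at 20 mg/kg were 70 to 270 when 1 mouse was left out. The 27 genes at 10 mg/kg were 56 with a pseudocount of 5, 10 without sex as covariate and 2 to 431 when 1 mouse was left out. The 15 called at both doses were 24 with a pseudocount of 5, 7 without the covariate, 29 without 10 mg/kg mouse 3 and 20 mg/kg mouse 2, and 2 to 51 when 1 mouse was left out. These alternatives against control, those of the list medians and the removal of both outlying mice were chosen after seeing the data. The cause of these shifts was not tested.

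Deviations of same-numbered mice of the 2 doses had a mean correlation of -0.03 (from -0.09 to 0.02, 4 pairs). For mice with different numbers it was 0.01 (from -0.40 to 0.34, 21 pairs). With 4 pairs, whether a shared number pairs the mice cannot be told. With the replicate number as a block the count between doses was again 60, of which 22 genes were shared. Against control the block gave 53 genes at 20 mg/kg, 1 at 10 mg/kg and 1 at both. The block keeps only mice whose number occurs in both groups, 1, 2, 4 and 5 between the doses. It thus also leaves out 10 mg/kg mouse 3 and 20 mg/kg mouse 6. In that fit the list medians were -0.35 for cytochrome P450 genes, 0.13 for antigen presentation genes and 0.08 for ribosomal protein genes. They were -0.05 for NRF2 targets and -0.10 for reported NMD substrates. Without 10 mg/kg mouse 3 and with no block these medians were -0.23, 0.16, 0.10, -0.01 and 0.06, and 22 genes were again shared. The part of the block itself was not tested. Depth of about 1020676 to 5208482 reads puts 3 reads at 0.576 to 2.94 TPM, under which levels could not be compared.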
